A study of Mus musculus with 4 samples.

Results

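The transcripts of 2 cold-inducible RNA-binding proteins, Rbm3 and Cirbp, and of 8 heat-shock factor targets, Hsph1, Hspb1, Hspa1a, Hspa1b, Hspa8, Dnajb1, Serpinh1 and Hspe1, were examined in kidney RNA of Th3 and control mice. Every non-control probe whose gene name in the array files, or a synonym of that name, was one of these 10 symbols was taken, which gave 16 of the 41174 probes on the array. Of these, 15 were well above background on all 4 arrays and entered the fit over 26447 probes, and 1 probe named Hspb1 did not. The set was selected on the Th3 over control ratios of these arrays, so those ratios are given as a description with no test.

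Th3 mice carry a deletion that takes out the beta-major and beta-minor globin genes, and model the inherited anaemia beta-thalassemia. The 4 Th3 and 4 control kidney samples were hybridised in pairs, 1 Th3 and 1 control sample on each of 4 arrays, with Th3 in Cy5 on arrays 1 and 2 and in Cy3 on arrays 3 and 4. The sources used here give neither the age nor the sex of the mice, nor whether 1 or both chromosomes carried the deletion. The labels name the comparison samples only as control kidney. They leave unsaid whether the samples of a group are different animals, and their spread may be technical.

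Rbm3 and Cirbp are small glycine-rich RNA-binding proteins whose transcripts rise when cells are cooled mildly. Heat and misfolded protein instead activate the heat-shock factors, which bind heat-shock elements, repeats of GAA in alternating orientation, and switch on chaperones. These chaperones work as a chain: small heat-shock proteins hold unfolded clients, J-domain proteins hand them to HSP70, HSP110 proteins reload HSP70, and chaperonins and compartment-specific chaperones finish the folding.

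Probes of Rbm3 and Hspb1 are shown first, each by its first 30 of 60 bases, as the array files list them. For Hspa1a the stretch shared by its probes is shown. The Rbm3 probes gave different ratios, the probes named Hspb1 differ in placement, and the Hspa1a probes overlap. The probes of Dnajb1 and Hspa8, which also differed from each other, are not shown. The 2 Rbm3 probes lie at chrX:7299489-7299548 and chrX:7297866-7297925 of mouse build mm8, both on the minus strand. Their starts are 1623 bases apart and they share no run of over 6 bases.
Rbm3 A_51_P262340: atggccagaaagtgatttctgaatgtacct
Rbm3 A_52_P280360: agttggatggttttctagctgtgtgtgtat
The 2 probes named Hspb1 do not lie on the same chromosome. The first is at chr5:136173684-136173871 on the plus strand, a placement that spans 188 bases, and the second at chr13:45092042-45092101 on the plus strand, whereas RefSeq (GRCm38.p6) has the gene on chromosome 5.
Hspb1 A_52_P404533: gaagaaaggcaggacgaacatggctacatc
Hspb1 A_52_P88910: attcttgctcacaagccttaacatttaact
The 2 Hspa1a probes, at chr17:34577907-34577966 and chr17:34577877-34577936 on the minus strand, overlap by 30 bases of the 60 in each. The shared stretch is given in capitals.
Hspa1a shared stretch: AGGGAAACTAAACTGTCTTTCAGTTACTTT
The array files do not say whether a probe lies in a coding exon or a UTR.

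Promoter windows of 300 bases, 250 before and 50 after a RefSeq start (GRCm38.p6), were matched by symbol for 8 of the 10 genes, in 11 windows; Rbm3 and Hspa8 were not matched. They were searched for GAANNTTC and TTCNNGAA, each of which reads the same on both strands. Of the 8 genes, 5 had a match, against 15.1% of all 32851 windows. The same motifs extended by 1 more GAA or TTC unit at that spacing, which contain the shorter ones, matched in 2 of the 8 genes, Hsph1 and Hspe1, against 0.603% of all windows. A gene was counted if any of its windows matched, whereas the shares are of single windows. Most members were also taken as heat-shock factor targets, so nothing is read from the higher share among them. One match before the start of each of the 5 genes is shown, with the matched letters in capitals, since the set holds genes with a match that were lower in Th3 kidney (Hsph1, Hspb1) and genes with a match that stood near the control level (Hspa1a, Hspa1b, Hspe1). They lie at chr5:149636354-149636377 (minus strand, Hsph1), chr5:135887794-135887817 (plus, Hspb1), chr17:34972245-34972268 (minus, Hspa1a), chr17:34959327-34959350 (minus, Hspa1b) and chr1:55088051-55088074 (plus, Hspe1).
Hsph1: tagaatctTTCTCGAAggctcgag
Hspb1: caacaagaGAAGTTTCcagatggg
Hspa1a: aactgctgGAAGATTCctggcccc
Hspa1b: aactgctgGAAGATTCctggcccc
Hspe1: acggtccgTTCTAGAAccttccgg
The 24 letters of Hspa1a and Hspa1b are identical. No match was found in the windows of Cirbp, Dnajb1 and Serpinh1, which says only that these letters are not in these windows.

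Per channel, 61.8% to 72.2% of probes exceeded background by the scanner's flag, and 0 spots were saturated. Levels are log2 channel signals after within-array and between-array normalization, in arbitrary units, and ratios are log2 of Th3 over control on 1 array. The brightest beta-globin probe, named Hbb-bt in current annotation, had a log2 ratio of -3.56 ± 0.48 (SD, n = 4), or 8.48% of control, in the direction of the labels. All 10 kidney markers examined, among them Umod of the loop of Henle and Slc34a1 of the proximal tubule, were well above background in both channels on 4 of 4 arrays, with mean signals between the 66.5th and the 99.9th percentile of all probes.

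The control sample of array 2 stood apart for several groups of chaperone transcripts, though not for all. Of 21 measured genes of endoplasmic reticulum chaperones and the unfolded protein response, 17 (81%) had their highest control level there, against 26.2% of all genes. The same held for 13 of 21 classical heat-shock factor targets (61.9%), 8 of 10 chaperonins (80%) and 4 of 4 HSP90 genes (100%). The share was 37.2% of 43 J-domain proteins, whereas 1 of 8 small heat-shock proteins (12.5%) was highest there. Of these 8, 6 had their lowest control level there (75%, against 30.2% of all genes). That sample also had the lowest control level for 8 of 8 measured fat markers (100%, against the same 30.2%). In bulk kidney RNA, fewer cells of a type and less RNA per cell cannot be told apart. Because of that sample, fitted log2 ratios without array 2 are given for the members that were called, for Hspe1 and where the sign turned. A fitted ratio weighs the dye orientations equally. With an array left out, the array that remains of its pair counts as much as both arrays of the other pair. The fitted ratio is then not the plain mean of the remaining ratios.

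**Figure D1:**
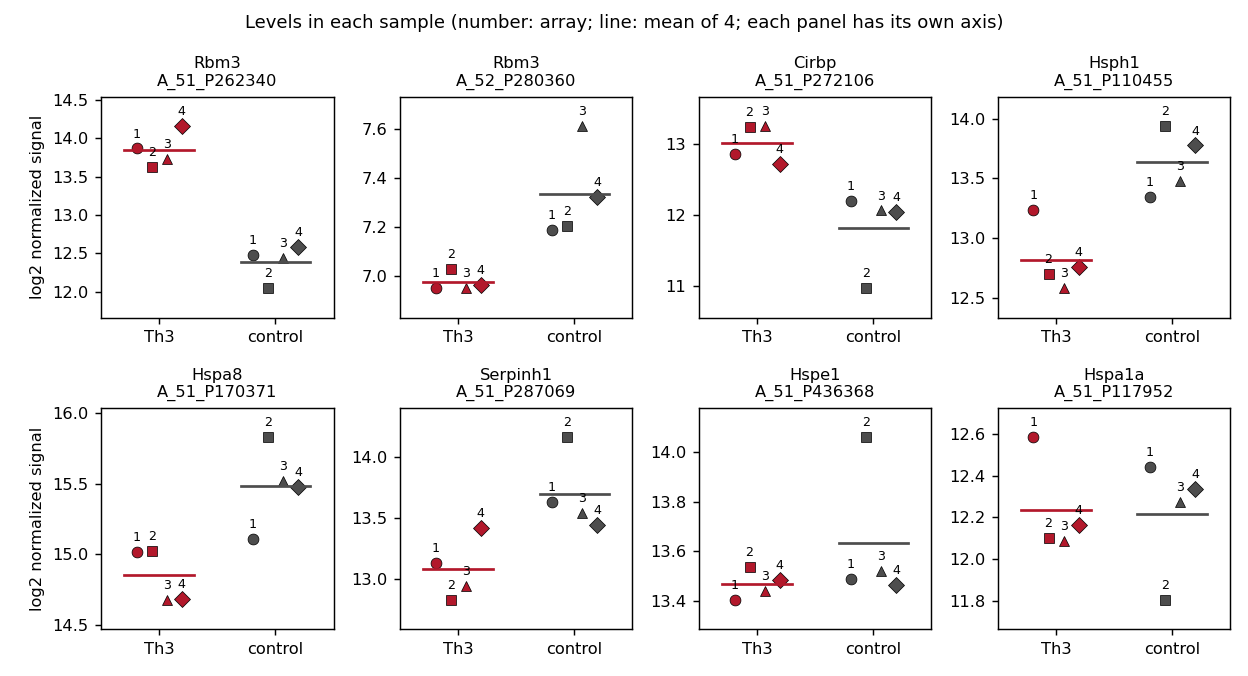
Log2 normalized signal (arbitrary units) of 8 probes in the 4 Th3 and 4 control samples, each point labelled with its array and each line the mean of 4. The groups are separate for both Rbm3 probes, in opposite directions, and for Cirbp, Hsph1, Hspa8 and Serpinh1. The control sample of array 2 lies far from the other controls for Cirbp, Hspe1, Hspa1a and Serpinh1.

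The 2 probes of Rbm3 gave ratios in opposite directions. In the array's annotation A_52_P280360 is tied to the RefSeq gene Rbm3. A_51_P262340 carries the symbol Rbm3 and a sequence record that is not among the RefSeq transcripts used here. By A_51_P262340, at the 96.4th percentile of signal, the Th3 samples of arrays 1 to 4 stood at 13.87, 13.63, 13.74 and 14.16, against 12.48, 12.05, 12.44 and 12.59 in the control samples. Every Th3 sample was above every control sample. The log2 ratios on arrays 1 to 4 were 1.39, 1.58, 1.30 and 1.58, with a mean of 1.46 ± 0.14 (SD, n = 4), or 2.75-fold. The fitted ratio was 1.41 without array 2.

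By A_52_P280360, at the 50.5th percentile of signal, the same Th3 samples stood at 6.95, 7.03, 6.95 and 6.96, against 7.19, 7.20, 7.61 and 7.32 in the control samples. Here every Th3 sample was below every control sample. The log2 ratios were -0.24, -0.17, -0.66 and -0.36, with a mean of -0.36 ± 0.21 (n = 4) and a fitted ratio of -0.37 without array 2. This probe was well above background in both channels on 4 of 4 arrays. The lowest signals called well above background were between 6.20 and 6.33 in the Th3 channels and between 6.21 and 6.24 in the control channels, so it lay in the dim range of the array. With Agilent's processed signals its log2 ratio was -0.79, farther from 0. In the authors' deposited table the 2 probes had signed folds of 2.78 and -1.48. When the kept probes of a gene were averaged, Rbm3 had a log2 ratio of 0.55, against 1.46 by its brightest probe.

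Cirbp, at chr10:79574658-79574717 on the plus strand, was higher in Th3 kidney on every array, by amounts that differed widely. Its Th3 levels were 12.85, 13.24, 13.25 and 12.71, against 12.20, 10.97, 12.06 and 12.04 in the control samples. The groups did not overlap, and the control sample of array 2 lay more than 1 log2 unit below the other 3. The log2 ratios were 0.65, 2.27, 1.19 and 0.67, with a mean of 1.19 ± 0.76 (n = 4), or 2.29-fold. Without array 2 the fitted ratio was 0.79, and without array 1 it was 1.60. In the authors' deposited table Cirbp had a signed fold of 2.32.

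Hsph1, the HSP110 protein that exchanges nucleotide on HSP70, was lower in Th3 kidney on every array. Its Th3 levels were 13.23, 12.70, 12.58 and 12.76, against 13.34, 13.94, 13.48 and 13.78 in the control samples. The highest Th3 sample, on array 1, lay just under the lowest control sample, also on array 1. The log2 ratios were -0.11, -1.24, -0.90 and -1.02, with a mean of -0.82 ± 0.49 (n = 4), or 56.8% of control. The fitted ratio was -0.54 without array 2 and -1.10 without array 1.

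Hspa8, the constitutive HSP70 of the cytosol, had 2 probes. By A_51_P170371 the Th3 levels were 15.02, 15.02, 14.68 and 14.69, against 15.11, 15.83, 15.52 and 15.48 in the control samples. These groups did not overlap, although on array 1 the samples were nearly level. The log2 ratios were -0.09, -0.80, -0.84 and -0.79, with a mean of -0.63 ± 0.36 (n = 4), or 64.6% of control. The fitted ratio was -0.45 without array 2. A_52_P12877, whose start lies 1532 bases away, had ratios of -0.45, -1.13, 0.06 and -0.42 and a mean of -0.48 ± 0.49. Its groups overlapped, array 3 was the exception in sign, and the fitted ratio was -0.31 without array 2. The order of the arrays therefore differed between the 2 Hspa8 probes: array 1 was nearest to 0 by the first and array 3 by the second.

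The stress-inducible HSP70 genes Hspa1a and Hspa1b, which sit next to each other on chromosome 17 and encode nearly the same protein, stood close to the control level on average. By A_51_P117952 the Th3 levels of Hspa1a were 12.59, 12.10, 12.09 and 12.16, against 12.44, 11.80, 12.27 and 12.34 in the control samples. The groups overlapped, with array 1 high in both and the control sample of array 2 lowest. The log2 ratios of 0.14, 0.30, -0.19 and -0.17 averaged 0.02 ± 0.24, and the fitted ratio was -0.02 without array 2. The overlapping probe A_52_P82741 had 0.29, 0.36, -0.37 and -0.19, with a mean of 0.02 ± 0.36. Both were higher in Th3 on arrays 1 and 2 and lower on arrays 3 and 4. Hspa1b had a mean of -0.17 ± 0.13 by A_52_P304902, lower on 4 of 4 arrays, and of -0.13 ± 0.17 by A_52_P52803, lower on 3 of 4. The groups overlapped for both, and the array files list A_52_P52803 under accessions of both Hspa1a and Hspa1b.

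The difference between the 2 pairs of arrays was not used to choose the set, so it was tested. It holds dye bias and any difference between the samples of the pairs, which cannot be told apart. None of the 15 member probes passed in limma (0 of 15, and 3 at an unadjusted p under 0.05), against 0.0529% of all probes. For the 2 Hspa1a probes, arrays 1 and 2 minus arrays 3 and 4 came to 0.40 and 0.61 on the log2 scale (adjusted p = 0.173 and 0.0936). For Hspa8 by A_52_P12877 the difference was -0.61 (adjusted p = 0.314).

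The small heat-shock protein gene Hspb1 was lower on 3 of 4 arrays by its chromosome 5 probe, A_52_P404533. Its Th3 levels were 10.62, 10.30, 10.13 and 10.35, against 10.57, 11.00, 10.72 and 11.08 in the control samples. The Th3 sample of array 1 reached into the control range. The log2 ratios were 0.05, -0.70, -0.59 and -0.72, with a mean of -0.49 ± 0.37 (n = 4) and a fitted ratio of -0.30 without array 2. The chromosome 13 probe, A_52_P88910, was not well above background in either channel on any array, and gives no level for the gene.

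Dnajb1, the J-domain partner of HSP70 in the heat-shock response, had probes on either side of 0. A_51_P153486 had log2 ratios of -0.11, -0.32, -0.50 and 0.00, with a mean of -0.23 ± 0.22, whereas A_52_P171663 had 0.11, -0.05, 0.22 and 0.23, with a mean of 0.13 ± 0.13. Their starts are 1435 bases apart, and the groups overlapped for both. Averaged over its probes, Dnajb1 had a log2 ratio of -0.05.

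Among the compartment-specific members, Serpinh1, the collagen chaperone of the endoplasmic reticulum known as HSP47, was lower on every array. Its Th3 levels were 13.13, 12.83, 12.94 and 13.42, against 13.63, 14.16, 13.54 and 13.44 in the control samples. The groups were separated by a narrow margin, between the Th3 and the control sample of array 4. The log2 ratios were -0.50, -1.33, -0.60 and -0.03, with a mean of -0.61 ± 0.54 (n = 4), or 65.3% of control. The fitted ratio was -0.41 without array 2. Hspe1, the lid of the mitochondrial chaperonin, had ratios of -0.08, -0.52, -0.08 and 0.02, with a mean of -0.16 ± 0.24 and a fitted ratio of -0.06 without array 2. Its control sample of array 2, at 14.06, lay above the Th3 samples, which ranged between 13.41 and 13.54, and the other 3 controls lay within that range.

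Counted over the 15 probes in the fit, 2 were called higher (adjusted p under 0.05), against 9.25% of all probes, and 6 were called lower, against 8.91%. The other 7 were not called, where 18.2% of all probes were called in either direction. With 1 array left out, the lower calls numbered 5, 3, 4 and 4 without arrays 1, 2, 3 and 4, and the higher calls 2, 2, 1 and 2. With the pairs of arrays as a random block, 1 was higher and 1 lower. Without array 2 the lower calls were Rbm3 by A_52_P280360, Hsph1 and the first Hspa8 probe, and without array 3 the 1 higher call was Rbm3 by A_51_P262340. The levels of the Th3 and control samples did not overlap for 6 of the 15, against 19.7% of all probes, and 7 kept 1 sign on all 4 arrays, against 36.2%. Nothing is read from these counts, since the choice of the members used the same ratios. The authors' deposited table gave signed folds of -1.77 for Hsph1, -1.62 and -1.403 for the Hspa8 probes, -1.435 for Hspb1 by A_52_P404533 and -1.54 for Serpinh1. Adjusted p-values of the authors' own test, which the sources do not name, were 0.0257 for Hsph1 and 0.0182 for the first Hspa8 probe. They were 0.121 for the second Hspa8 probe, 0.0589 for Hspb1 and 0.0792 for Serpinh1.

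**Figure D2:**
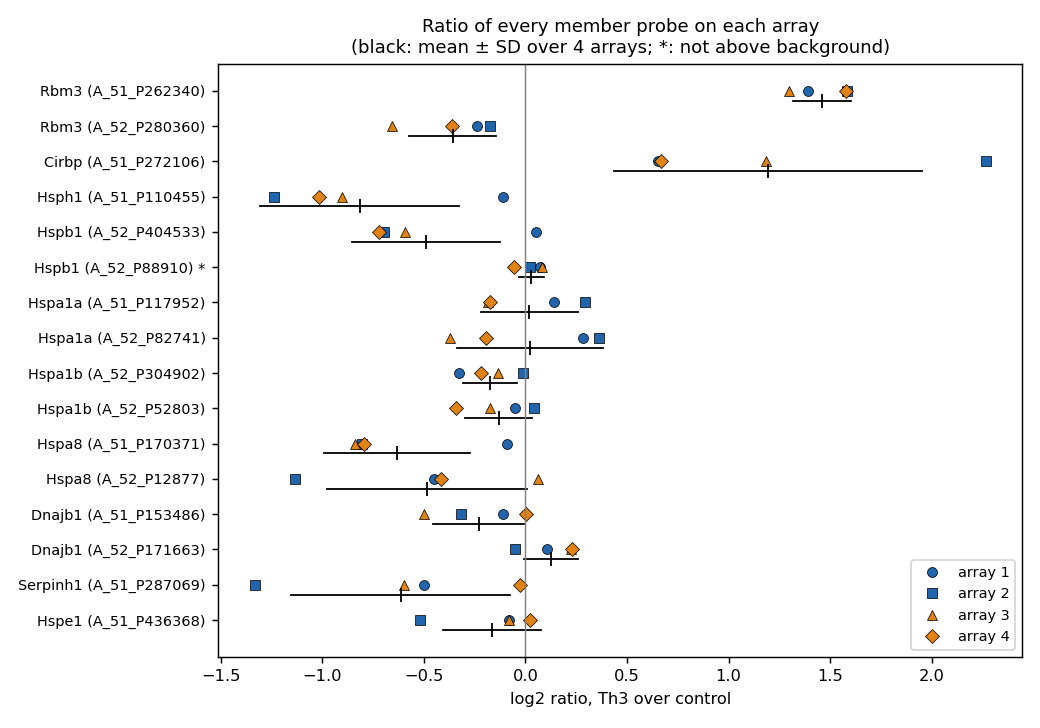
Log2 ratio of Th3 over control for each of the 16 probes on arrays 1 to 4, with the mean and SD over the 4 arrays in black. Rbm3 appears on both sides of 0 according to the probe, Cirbp reaches 2.27 on array 2, and Hsph1, Hspb1 and the first Hspa8 probe are nearest to 0 on array 1.

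The rest of the network was then read from 12 gene lists, by the brightest kept probe of each gene. Of 17639 genes tested, 20.5% were called, 10.3% higher and 10.2% lower in Th3 kidney. Of 165 tested network genes outside the set, 18 were higher (10.9%) and 20 lower (12.1%), together 23%, and their median log2 ratio was -0.04, against 0.00 over all genes. The network as a whole thus stood near the background. With the pairs as a random block the counts were 6 higher and 10 lower. Of the calls given below, those of Hspa12a, Trap1, Dnajc24, Grpel2, Cdc37l1, Stip1 and Tagln ended under 7 to 11 of 18 alternatives.

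Among 13 tested cold-shock domain and related RNA-binding genes, 4 rose and 1 fell, while 8 missed the threshold, and the median log2 ratio was 0.02. Srsf5, a splicing factor, was 0.58 ± 0.38 log2 units higher (n = 4, adjusted p = 0.0206), and Hnrnpa1, another splicing regulator, 0.44 ± 0.09 higher (adjusted p = 0.00697). A further Hnrnpa1 probe also rose (0.32 ± 0.11), and 2 had 0.16 ± 0.24 and -0.09 ± 0.08 and did not pass. The 1 gene that fell was Rbm4, a splicing regulator, by 0.48 ± 0.14 on the log2 scale (adjusted p = 0.00768). The number that rose was 2 without array 1 and 2 without array 2.

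Of 8 tested heat-shock factors and regulators, 1 rose and 7 did not pass. That gene, Hsf5, had a log2 ratio of 0.21 ± 0.14 (adjusted p = 0.046), with its control channel well above background on 3 of 4 arrays, and its call ended under 9 of 17 alternatives.

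Of 21 tested classical heat-shock factor targets outside the set, 1 rose and 6 fell, while 14 missed the threshold, and the median log2 ratio was -0.19. Hspa4, an HSP110-type exchange factor, fell by 0.61 ± 0.18 (n = 4, adjusted p = 0.00619), but its other probes had log2 ratios of 0.14, 0.04 and -0.07 and did not pass. Cryab, the small heat-shock protein alpha-B-crystallin, fell by 0.56 ± 0.36 (adjusted p = 0.00601) and by 0.43 ± 0.20 at a second probe. Hspa2, an HSP70 best known from the testis, was the 1 gene that rose, by 0.43 ± 0.25 (adjusted p = 0.0065), while its second probe had 0.22 ± 0.17 and did not pass. The count of targets that fell was 9 without array 1, 4 without array 2 and 3 without array 4. With the pairs as a random block it was 2.

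The chaperone families overlap with that list, and are counted by family. In the HSP70 and HSP110 family 1 of 10 rose and 2 fell: Hspa2 and Hspa4 as above, and Hspa12a, an atypical HSP70, which fell by 0.20 ± 0.03 (adjusted p = 0.0428). Its 3 other probes had log2 ratios of -0.18, -0.11 and 0.01 and did not pass. Without array 2, array 3 or array 4 the family had 1 lower call, and without array 4 it had 2 higher calls. With the pairs as a random block it had 0 higher calls and 1 lower call. In the HSP90 family 2 of 4 fell, none rose in limma (0 of 4, and 0 at an unadjusted p under 0.05), and the median was -0.40. The cytosolic Hsp90ab1 fell by 0.41 ± 0.28 (adjusted p = 0.0213), with -0.31 ± 0.24 at a second probe (adjusted p = 0.0506), and the mitochondrial Trap1 fell by 0.43 ± 0.34 (adjusted p = 0.0478), lower on 3 of 4 arrays. Without array 2 no HSP90 gene passed (0 of 4), without array 4 the count was 1, and without array 1 it was 3. Of 8 small heat-shock proteins, Cryab and Cryaa fell, the second by 0.33 ± 0.17 (adjusted p = 0.0305), and 6 did not pass. The count was 1 without array 1, array 3 or array 4. With the pairs as a random block, 0 small heat-shock proteins and 0 HSP90 genes fell. All 10 chaperonins missed the threshold in limma (0 of 10, against 3 lower at an unadjusted p under 0.05). Hspd1, the ring that Hspe1 closes, came nearest, with a log2 ratio of -0.28 ± 0.18 (adjusted p = 0.0524), lower on 4 of 4 arrays, and -0.16 ± 0.44 at its second probe. Chaperonin calls went in opposite directions as arrays were left out, with 3 lower without array 3 and 2 higher without array 4.

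Of 43 J-domain proteins, 2 rose, 3 fell and 38 did not pass, which is 11.6% called. There were 0 higher and 1 lower without array 2, 1 higher without array 1 or array 3, and 0 higher with the pairs as a random block. Dnajb3 and Dnajc24 had log2 ratios of 0.36 ± 0.20 and 0.22 ± 0.09 (adjusted p = 0.0195 and 0.0462). Dnaja1, a cytosolic HSP70 partner, fell by 0.48 ± 0.26 (adjusted p = 0.0219), but 2 other probes had -0.09 and -0.10 and did not pass. Dnajb2 fell by 0.35 ± 0.12 (adjusted p = 0.0158). Of 24 HSP70 and HSP90 co-chaperones, 3 rose and 4 fell. Fkbp4, a prolyl isomerase of HSP90 complexes, fell by 0.47 ± 0.14 (adjusted p = 0.00867), while its second probe had -0.20 ± 0.31 and did not pass. Stip1, which links HSP70 to HSP90, fell by 0.30 ± 0.40 (adjusted p = 0.0436), on 3 of 4 arrays. Grpel2, a mitochondrial exchange factor, and Cdc37l1 had log2 ratios of 0.36 ± 0.29 and 0.23 ± 0.10 (adjusted p = 0.0428 and 0.0392), while their other probes did not pass. With any 1 array left out 1 co-chaperone was higher, and without array 2 the lower count was 1. With the pairs as a random block 0 co-chaperones were higher and 1 was lower.

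**Figure D3:**
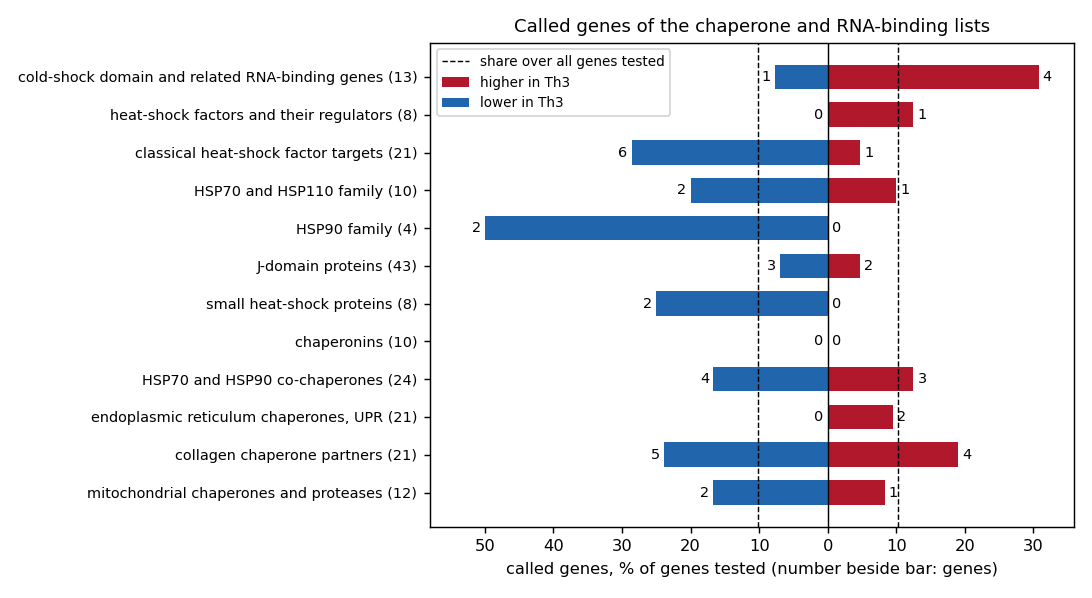
Share of tested genes called higher (right) and lower (left) in Th3 kidney for 12 gene lists, in percent, with the number of genes beside each bar, the number tested in brackets and the shares over all genes as dashed lines. HSP90 genes and classical heat-shock factor targets have more lower than higher calls, and cold-shock and related genes more higher than lower calls.

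The ratios of endoplasmic reticulum chaperones and unfolded protein response genes were mostly lowest on array 2. Of 21, 2 rose and none fell in limma (0 of 21, against 3 at an unadjusted p under 0.05). Their median log2 ratio on arrays 1 to 4 was 0.13, -0.54, 0.07 and 0.09, and 18 of the 21 had their lowest ratio on array 2 (85.7%, against 18.6% of all genes). Without array 1, where array 2 alone stands for its pair, the count that fell was 7. Without array 2 it was 0, as with all arrays, and 3 rose. With the pairs as a random block 1 rose and 0 fell. Canx, the lectin chaperone calnexin, rose by 0.46 ± 0.22 (adjusted p = 0.0148), and Trib3, a pseudokinase of the stress response, by 0.30 ± 0.15 (adjusted p = 0.0337). The other probes of both did not pass, at 0.02 and 0.08 for Canx and 0.07 for Trib3.

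Centred on each gene's mean over the 8 samples, these genes had a median of 0.45 in the control sample of array 2 and of -0.16, -0.08 and -0.04 in the other 3 controls. The Th3 samples had -0.04, -0.11, -0.05 and 0.06. The classical heat-shock factor targets, by contrast, had -0.05, -0.12, -0.10 and -0.15 in the Th3 samples, against 0.02, 0.25, 0.01 and 0.12 in the controls, so their medians were lower in every Th3 sample than in any control. The same held for HSP90 genes, with a highest Th3 median of -0.1299 and a lowest control median of -0.092. It also held for mitochondrial chaperones and proteases (0.0039 and 0.0318) and, barely, for HSP70 and HSP90 co-chaperones (-0.0135 and -0.0125). These lists share genes.

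**Figure D4:**
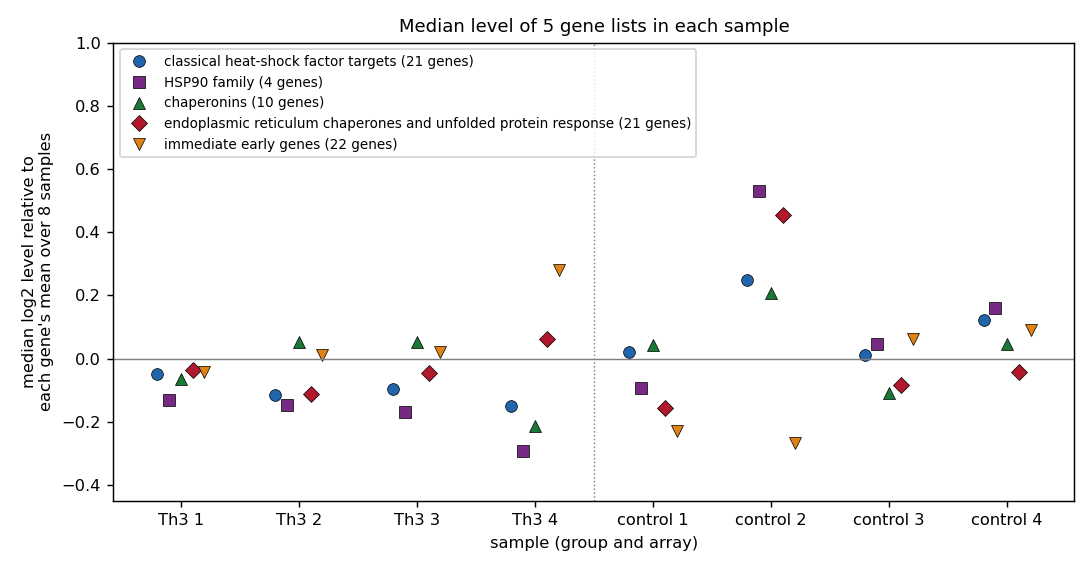
Median log2 level of 5 gene lists in each Th3 and control sample, relative to each gene's mean over the 8 samples. Endoplasmic reticulum chaperones and HSP90 genes peak in the control sample of array 2, at 0.45 and 0.53, while classical heat-shock factor targets lie below 0 in all 4 Th3 samples and above 0 in all 4 controls. HSP90 medians are also lower in every Th3 sample than in any control.

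Of 21 collagens and collagen-modifying partners of Serpinh1, 4 rose, 5 fell and 12 did not pass. Chains of collagen VI rose: Col6a1 had a log2 ratio of 1.43 ± 0.23 (adjusted p = 0.000303) and Col6a2 of 1.00 ± 0.28 (adjusted p = 0.00239). Fibrillar chains were called in both directions: Col3a1 fell by 0.99 ± 0.23 (adjusted p = 0.00261) and Col5a2 by 0.47 ± 0.11 (adjusted p = 0.00673), while Col5a1 rose by 0.67 ± 0.21 (adjusted p = 0.00192), each on 4 of 4 arrays, and Col1a2 had 0.15 ± 0.15 and did not pass. Without array 2 the collagen list had 3 lower calls. Of 12 mitochondrial chaperones and proteases, 1 rose and 2 fell. The lower calls numbered 6 without array 3, 1 without array 2, 0 without array 1 and 0 with median centring. The higher calls numbered 0 without array 3 and 2 without array 4. With the pairs as a random block 0 were higher and 1 was lower. Clpx, the unfoldase of the ClpXP protease, had a log2 ratio of 0.53 ± 0.30 (adjusted p = 0.0212), while its other probe had 0.16. Spg7, a subunit of an inner-membrane protease, fell by 0.34 ± 0.09 (adjusted p = 0.0119), and Trap1 is given above.

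Markers of other cells that a kidney sample can hold also moved, and their part in the ratios above was not tested. Of 8 tested fat markers 2 rose and 3 fell, against 4 higher without array 4, 1 higher without array 2, and 1 higher and 1 lower under a random block for the array pairs. Ucp1 of brown fat fell by 3.40 ± 0.93 (adjusted p = 0.00214) and Cox8b by 1.23 ± 0.91 (adjusted p = 0.0285), while Adipoq and Retn had log2 ratios of 1.00 ± 1.02 and 0.64 ± 0.35 (adjusted p = 0.0482 and 0.00815). The log2 sum of the 8 fat signals was between 16.23 and 16.63 in Th3 samples and between 15.13 and 17.08 in control samples, lowest in the control sample of array 2. Elovl3 and Lep were not tested, as their probes were too dim.

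Of 11 macrophage and dendritic cell markers, 1 rose and 7 fell, whereas a random block for the array pairs gave 0 higher and 2 lower. Their median log2 ratio on arrays 1 to 4 was 0.33, -0.14, -0.64 and -0.80, so it was lower on arrays 3 and 4 than on arrays 1 and 2. The macrophage genes Lyz2 and Adgre1 averaged 0.30 and 0.11 on arrays 1 and 2, and -1.57 and -1.16 on arrays 3 and 4. Itgax and Ccr2 fell by 0.99 ± 0.29 and 0.96 ± 0.48 (adjusted p = 0.00214 and 0.00059), although a second Itgax probe had -0.02 ± 0.05 and did not pass, and Cd163 had a log2 ratio of 0.50 ± 0.38 (adjusted p = 0.0162). Their log2 sum was between 13.52 and 14.45 in Th3 samples and between 13.78 and 15.15 in control samples, and Itgam was not tested. Of 10 lymphocyte markers 6 fell and none rose in limma (0 of 10, and 0 at an unadjusted p under 0.05), led by the antibody genes Jchain by 2.10 ± 1.42 and Ighm by 1.11 ± 0.61 (adjusted p = 0.00119 and 0.00059). Under a random block for the array pairs the number that fell was 3. The median log2 ratio of the lymphocyte markers on arrays 1 to 4 was -0.10, -0.10, -0.79 and -0.59, so it was lower on arrays 3 and 4. Their sum was between 11.32 and 11.55 in Th3 samples and between 11.70 and 13.34 in control samples, and Cd79a was not tested.

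Of 9 muscle markers only Tagln passed, and fell by 0.22 ± 0.12 (adjusted p = 0.0454), while its second probe had -0.16 ± 0.43. Without array 1 or array 4 no muscle marker was lower, and 2 were higher without array 4. The muscle sum was between 14.22 and 14.48 in Th3 samples and between 14.21 and 14.56 in control samples, with Ckm, Myh4 and Tnnt3 not tested. Of 8 erythroid markers 4 rose and 2 fell, against 1 lower without array 1, and a random block for the array pairs gave 2 higher and 1 lower. Epb42 and Klf1 had log2 ratios of 0.46 ± 0.25 and 0.41 ± 0.11 (adjusted p = 0.00481 and 0.00697), the control channel of Epb42 being well above background on 2 of 4 arrays, and Hba-a1 fell by 0.42 ± 0.23 beside Hbb-bt. The erythroid sum was between 14.31 and 15.31 in Th3 samples and between 15.92 and 16.94 in control samples, and Ahsp was among the markers not tested. That sum holds Hbb-bt, which the Th3 deletion removes. Without Hbb-bt, a choice made after the data were seen, it was between 14.11 and 14.93 in Th3 samples and between 14.52 and 15.36 in control samples, and 6 of the 8 markers had ratios above 0. Of the 10 kidney markers 3 fell, Slc34a1 by 0.44 ± 0.26 and Cdh16 by 0.35 ± 0.04 among them (adjusted p = 0.00457 and 0.00815), and a second probe of Slc34a1 had 0.18 ± 0.17.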

How the data were processed

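Per the labels' protocols, total kidney RNA was linearly amplified from an oligo-dT primer with a T7 promoter and labelled as cRNA. Per the file headers, the scanner files hold intensities of spots and their local background, read by Agilent's Feature Extraction 9.5.3.1 (array design 014868, annotated on mm8), not normalized, and processed intensities after background subtraction, detrending and dye normalization. Their log10 ratio of Cy5 over Cy3, per the file headers, served to check each ratio's direction. The authors deposited a table of log2 ratios, Th3 over control, for each array, with a signed fold (a score of theirs) and an adjusted p-value, whose normalization and test are not given in the sources used here. Other deposited tables are copies or selections of it and were not used.

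Mean signals were corrected with normexp (offset 50) on the local background median and loess-normalized within arrays (span 0.3, 4 iterations; weight 0 for control and outlier spots) in R 4.3.3 with limma 3.58.1 and data.table, version 1.17.8. Outlier spots, at most 186 on an array, were set to missing, and the 41174 probes are means of 43379 spots. Kept probes were well above background on all 4 arrays in Th3 or on all 4 in control, and had values on 3 arrays or more. Names came from a RefSeq gene table (GRCm38.p6): 23374 probes by accession, 6733 by symbol, 2919 by synonym and 8148 kept the array's name. In lists each gene was read from its brightest kept probe.

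The lmFit and eBayes fit of the ratios had a Th3 term and a dye term (2 residual and 4.36 prior degrees of freedom), and Benjamini-Hochberg adjusted p-values under 0.05 over all kept probes were called. P-values measure only the spread between these samples within each pair of arrays of 1 dye orientation. After ± stands the SD of the 4 ratios. Channel levels came after Aquantile normalization between arrays. Scripts were tested on simulated data. The number of arrays limits the precision.

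The members, the lists and the comparisons were chosen with earlier results of these data known. From each of 19 lists, 12 of chaperone and RNA-binding genes and 7 of immediate early genes and cell type markers, up to 2 genes with the largest increase and 2 with the largest decrease among those called were named, or the gene with the smallest p. Further genes, such as Col5a1, Col1a2, Lyz2, Adgre1 and Umod, were named outside this rule. Alternatives changed the background correction, scaling, filter, outliers, dye term, block, channels, weights, empirical Bayes settings, probe summary or source of values, or left out an array.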

Additional observations from a re-analysis of the deposited data

Results flagged for a closer look

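In 7 of 45 groups of 4 values of the member probes, the highest or lowest value stood apart. Its gap to the nearest value passed Dixon's critical value at the 95% level, which chance gives in about 1 in 20 independent groups. The 45 groups are not independent, since ratios are taken from the levels and all probes share the same samples. No excess is therefore read from their number. Of the 7 values, 3 were control samples of array 2: Cirbp at a log2 level of 10.97 (next 12.04), Hspa1a by A_52_P82741 at 11.64 (next 12.24) and Hspe1 at 14.06 (next 13.52). The log2 ratios of array 1 stood apart for Hspb1 by A_52_P404533, at 0.0536 (next -0.59), and for Hspa8 by A_51_P170371, at -0.0907 (next -0.79). The Th3 sample of array 1 stood apart for Hspa1a by A_51_P117952, at 12.59 (next 12.16). The Th3 sample of array 2 stood apart for Rbm3 by A_52_P280360, at 7.03 (next 6.96), a small gap in a narrow group.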

How the results depend on the processing

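Each of the 15 member probes in the fit was recomputed under 16 alternatives, and the 8 called ones kept their sign in all of them. Their calls were less steady: Rbm3 by A_51_P262340 and Hspa8 by A_51_P170371 passed in all 16, Cirbp and Hsph1 in 14 each, Rbm3 by A_52_P280360 in 13, Serpinh1 in 10, Hspa8 by A_52_P12877 in 9 and Hspb1 in 8. The members were chosen on these same ratios, so these counts describe only the dependence on processing and test nothing about the members. The Hspa1a probes, near 0, changed sign in 1 of 16 each. Of 47 named and called list genes, 18 kept their call under every alternative and 29 lost it under at least 1. Cdc37l1 turned to -0.0305 with Agilent's processed signals. No paired analysis was possible because the 4 arrays form 1 group of ratios, each already a pair; the pairs of arrays of 1 dye orientation were used as a random block instead.

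Probes called higher numbered 2447, against 1436 with no dye term, 924 with the array pairs as a random block and 4088 with separate channels. Probes called lower numbered 2357, against 1399 with median centring, 1171 with no dye term, 799 with the block and 3658 with separate channels. Leaving out 1 array gave 1127 to 2742 higher and 1113 to 2463 lower, with the fewest without array 1 and 1328 and 1246 without array 2. The difference between array pairs was called for 14 probes, against 5 with Agilent's processed signals, 17359 with median centring, 52 with outlier spots kept, 48 with array weights, 217 with robust variances and an intensity trend, 172 with 1 probe per gene, 142 with the mean of a gene's probes, 164 with the authors' deposited log2 ratios, 509 with separate channels and 43 to 186 without 1 array. Median centring moved the median ratio of the arrays to 0.24, 0.36, -0.21 and -0.27, but the median ratio over all kept probes only to 0.02. Of the network genes, 18 were higher, against 11 with no dye term, 6 with the block and 10 to 18 without 1 array (10 without array 1, 11 without array 3). There were 20 lower, against 12 with median centring, 10 with the block, 34 with separate channels and 10 to 24 without 1 array, with 10 without array 2. Heat-shock elements were found in 5 member genes, against 2 with the longer motif. Dim probes limit the Rbm3 reading from A_52_P280360, which ranged between -0.79 and -0.28. The cause of these changes was not tested.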

Other observations

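Immediate early genes, which respond within minutes to stimuli that also include heat and handling, had calls in both directions. Of 22 tested, 5 rose, 2 fell and 15 did not pass, with a median log2 ratio of 0.13. There were 8 higher without array 3, 4 lower without array 4 and 0 lower with the pairs of arrays as a random block. Nr4a1, a nuclear receptor, had a log2 ratio of 0.86 ± 0.51 (SD, n = 4, adjusted p = 0.0086), and Dusp1, a MAP kinase phosphatase, 0.76 ± 0.54 (adjusted p = 0.0201), each higher on 4 of 4 arrays. The zinc finger factor Egr2 fell by 0.34 ± 0.28 (adjusted p = 0.00898) and Atf3 by 0.33 ± 0.29 (adjusted p = 0.0106). All 22 had their lowest control level on array 1 or array 2, 11 on each (50%, against 25% and 30.2% of all genes). The highest Th3 level was on array 4 for 18 of 22 (81.8%, against 27.4% of all genes).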
